A study of Mus musculus with 12 samples.

Results

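The 7 genes described here encode the enzymes that sit directly behind inhibitory and activating receptors of leukocytes: Ptpn6 (SHP-1), Ptpn11 (SHP-2), Inpp5d (SHIP1), Lyn, Fgr, Syk and Csk. They were chosen by name, for their place in this pathway, from the 54532 genes of the authors' table. Earlier results of these data were known when the 7 genes were chosen. All 7 passed the expression filter, as did 14547 genes in all. RNA-seq was made from eosinophils sorted from spleens of IL-5tg_4get/C57BL/6 mice as SSC-high, 4get+ (GFP) cells and kept in culture for 4 h. The combined group received 5 µg/mL of the anti-Siglec-F antibody E50-2440 together with 10 ng/mL IL-33, the IL-33 group received the cytokine at that dose, the anti-Siglec-F group received the antibody at that dose, and the isotype group received rat IgG2a. Each of the 4 groups had 3 libraries. All groups share the IL-5 transgene, which expands eosinophils, and the 4get reporter, which marks cells that transcribe the interleukin-4 gene. The age of the mice, an isotype antibody in the IL-33 wells and separate animals or cultures behind the 3 libraries of a group are not stated in the labels. The p-values below therefore cover only how these libraries vary, which may be a technical spread.

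Siglec-F is a sialic acid-binding receptor of mouse eosinophils whose cytoplasmic tail carries an immunoreceptor tyrosine-based inhibitory motif (ITIM). Src family kinases such as Lyn and Fgr phosphorylate tyrosines of such motifs, and the SH2 domains of SHP-1, SHP-2 and SHIP1 dock on them. SHP-1 removes phosphate from tyrosines of activating receptors and their kinases, SHP-2 has both inhibitory and signal-promoting roles, and SHIP1 removes the 5-phosphate of the lipid PIP3. Syk acts on the activating side, downstream of receptors with ITAM motifs, and Csk holds Src family kinases in check by phosphorylating their tail tyrosine. IL-33, an alarmin cytokine, signals in eosinophils through its receptor ST2.

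The genes lie on 6 chromosomes of mm10, and all are protein-coding in the authors' annotation. Ptpn6 (ENSMUSG00000004266, chr6:124720707-124738714, minus strand) has a gene length of 2802 bases in the authors' table. Ptpn11 (ENSMUSG00000043733, chr5:121130533-121191397, minus strand) has 7492 bases. Inpp5d (ENSMUSG00000026288, chr1:87620312-87720507, plus strand) has 7602 bases. Lyn (ENSMUSG00000042228, chr4:3678115-3813122, plus strand) has 4073 bases. Fgr (ENSMUSG00000028874, chr4:132974095-133001910, plus strand) has 3863 bases. Syk (ENSMUSG00000021457, chr13:52583173-52648792, plus strand) has 9362 bases. Csk (ENSMUSG00000032312, chr9:57626646-57653631, minus strand) has 3737 bases.

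The promoters of Fgr and Ptpn6, the kinase and the ITIM phosphatase with the largest increases under both stimuli, are shown beside that of Inpp5d, which was not called in any comparison. Each sequence is the 250 bases before the RefSeq start on GRCm38.p6, given on the gene's own strand at chr4:132973845-132974094 (plus) for Fgr, chr6:124738710-124738959 (minus) for Ptpn6 and chr1:87620062-87620311 (plus) for Inpp5d. Promoters were found for 6 of the 7 genes, all but Lyn. Capitals mark matches on either strand to GGGNNNNNCC, the spacing of an NF-kB site, or to GAGGAA, a purine-rich form of the ETS factor site. Other forms of that site were not searched, so a count of 0 does not mean that ETS sites are absent.
Fgr: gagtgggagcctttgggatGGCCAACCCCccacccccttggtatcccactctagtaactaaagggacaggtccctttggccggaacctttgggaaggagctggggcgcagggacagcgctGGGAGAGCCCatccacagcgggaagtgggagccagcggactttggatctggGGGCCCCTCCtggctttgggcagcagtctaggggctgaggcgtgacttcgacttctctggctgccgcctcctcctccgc
Ptpn6: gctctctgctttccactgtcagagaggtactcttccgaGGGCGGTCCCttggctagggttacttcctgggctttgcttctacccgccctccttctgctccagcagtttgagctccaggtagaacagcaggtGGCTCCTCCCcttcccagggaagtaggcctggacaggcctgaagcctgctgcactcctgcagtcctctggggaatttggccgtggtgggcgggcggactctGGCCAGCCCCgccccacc
Inpp5d: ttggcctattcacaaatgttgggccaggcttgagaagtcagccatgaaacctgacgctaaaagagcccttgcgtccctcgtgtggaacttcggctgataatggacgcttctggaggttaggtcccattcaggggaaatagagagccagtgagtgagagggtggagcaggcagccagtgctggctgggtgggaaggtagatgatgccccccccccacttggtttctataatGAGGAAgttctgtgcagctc
The Fgr and Ptpn6 promoters each held 3 matches to GGGNNNNNCC and the Inpp5d promoter held 0, while 45.8% of the 32851 mouse promoters of the same length held at least 1. The Inpp5d promoter held 1 match to GAGGAA and the others held 0, against 23.25% of all promoters with a match. None of the 3 held TGANTCA, the AP-1 motif, which 6.749% of promoters held. No match overlapped a match of another motif. The 3 genes were chosen by their results, and the matches of Ptpn11, Syk and Csk were not listed, so the contrast does not extend to the 7 genes. A match describes letters in this window and says nothing of binding.

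On a scale per gene length (RPKM, reads relative to gene length and library size, with TMM scaling), the phosphatase SHP-1 was the most abundant of the 7 transcripts in every group. Ptpn6 averaged 424 RPKM in the combined group, 381 with IL-33, 284 with anti-Siglec-F and 248 with isotype. It ranked 117 among all genes by its mean over the 12 libraries (334 RPKM). Csk followed with a mean of 161 RPKM over the 12 libraries, Fgr with 121, Syk with 112, Lyn with 88.3 and Inpp5d with 86.0 RPKM. Ptpn11 was lowest at 16.5 RPKM, rank 2979, and its range lay below those of the other 6 genes in each group. The order in the middle was not fixed: in the combined group the ranges of Csk and Fgr, of Lyn and Syk and of Syk and Inpp5d overlapped. With IL-33 the ranges of Csk and Fgr, Fgr and Syk, and Lyn and Inpp5d overlapped. With anti-Siglec-F those of Syk and Fgr and of Fgr and Inpp5d did so, and with isotype only those of Fgr and Inpp5d among neighbours in the order.

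**Figure D1:**
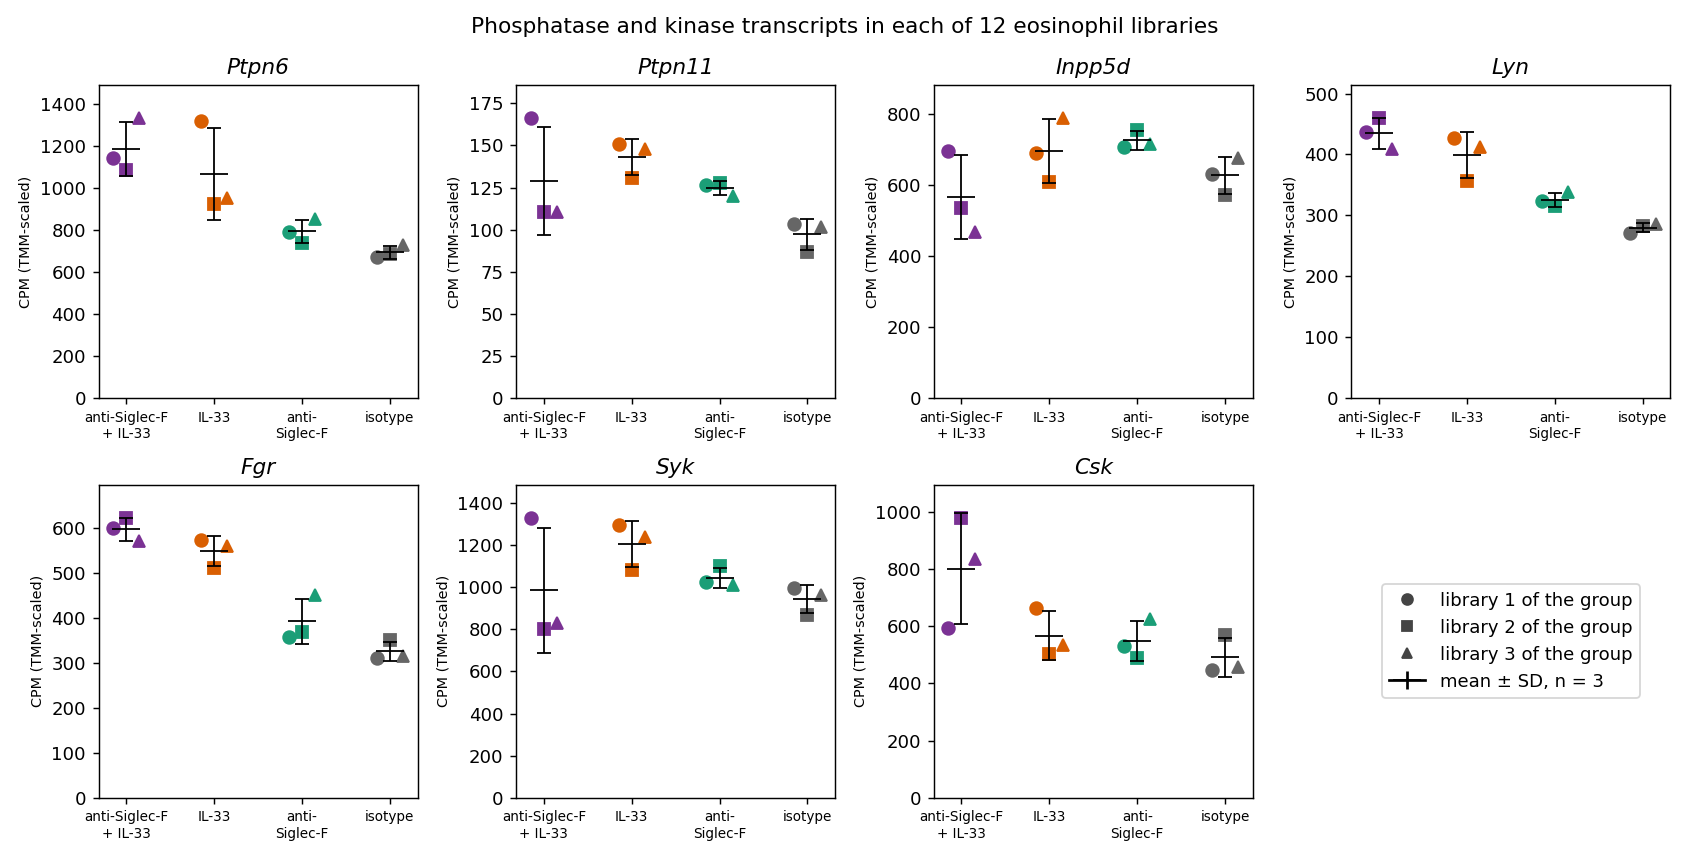
TMM-scaled CPM (reads relative to library size) of the 7 genes in each of 12 libraries, with 1 panel per gene and the groups from the combined group at left to isotype at right; marker shapes give the library number, and bars give the mean ± SD (n = 3). Fgr sits between 570 and 621 CPM in the combined group, above its range of 311 to 350 CPM in the isotype group, while the combined libraries of Syk and Inpp5d straddle the isotype values.

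Total counts ran from 11686603 to 17137988 per library. The eosinophil markers (Siglecf, Epx, Prg2, Prg3, Ccr3, Il5ra, Ear1, Ear2, Ear6 and Alox15) were detected in every library. In the combined group, libraries 2 and 3 differed from the other 10. They held 15555 and 29990 detected genes, against 19138 to 24485 in the others, and 3.22% and 3.68% of their reads lay in ribosomal protein genes, against 1.69% to 2.59%. Their values also followed gene length: among the shortest of 4 equal length classes of 9178 genes with at least 5 CPM, the median log2 deviation from the isotype mean was 0.32 and 0.45, and in the longest class it was -0.29 and -0.39. In library 1 of the combined group these medians were -0.08 and 0.07. Called results on the combined group are therefore also given without libraries 2 and 3. There a single combined library is assumed to vary like the other groups. IL-33 library 3 followed gene length in the opposite direction, with medians of -0.25 in the shortest class and 0.20 in the longest. Anti-Siglec-F library 2 had -0.21 and 0.12. The part of these trends in the values of the long genes was not tested separately.

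With both stimuli, 4 of the 7 genes rose over isotype: Fgr, Ptpn6, Csk and Lyn. The other 3, Ptpn11, Inpp5d and Syk, were not called, and none of the 7 fell. Of all genes tested, 5.47% were called higher and 4.41% lower in this comparison (edgeR's quasi-likelihood test, adjusted p under 0.05). The median log2 fold change of the 7 genes was 0.63, beside -0.05 over all genes tested. In 5 of the 7 genes all 3 combined libraries lay above all 3 isotype libraries, and 12% of all genes did so. In bulk RNA, a change in the number of cells of a type and a change in RNA per cell cannot be told apart.

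Of the phosphatases, Ptpn6 had 1143, 1085 and 1333 CPM in the combined group, 1319.9, 924 and 956 CPM with IL-33, 789, 741 and 853 CPM with anti-Siglec-F, and 671, 685 and 729.8 CPM with isotype. Each combined and each IL-33 library was above every library of the other groups. The log2 fold change of the combined group over isotype was 0.77 (SE 0.168, edgeR adjusted p = 0.0125), a 1.71-fold rise. The call was lost without isotype library 1 (adjusted p = 0.0617) and without combined libraries 2 and 3 (0.0803), while the log2 fold change stayed at 0.77 in each. Ptpn11 had 166, 110.7 and 110.3 CPM in the combined group, 151, 131 and 148 CPM with IL-33, 127, 128 and 119.9 CPM with anti-Siglec-F, and 104, 86.7 and 102 CPM with isotype. All 9 treated libraries lay above the 3 isotype libraries. The combined group's log2 fold change was 0.41 (SE 0.167, edgeR adjusted p = 0.139). It was 0.82 without combined libraries 2 and 3 (adjusted p = 0.0168) and 0.57 with the trend on gene length and GC content removed (adjusted p = 0.0119), an alternative added after the data were seen. Inpp5d had 696, 536 and 466 CPM in the combined group, 691, 609 and 787 CPM with IL-33, 706, 756 and 714 CPM with anti-Siglec-F, and 631, 572 and 677 CPM with isotype. The combined values straddled the isotype values, with a log2 fold change of -0.15 (95% interval -0.51 to 0.22, edgeR adjusted p = 0.626). It was 0.20 without combined libraries 2 and 3 (adjusted p = 0.689) and 0.04 with the length and GC trend removed.

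Of the Src family kinases, Fgr had 600.1, 621 and 570.3 CPM in the combined group, 574, 510.4 and 559.9 CPM with IL-33, 358, 367 and 450.0 CPM with anti-Siglec-F, and 311, 350.4 and 315 CPM with isotype. The combined and IL-33 libraries formed 1 range, the anti-Siglec-F libraries lay between, and the isotype libraries were lowest. Its log2 fold change with both stimuli was 0.88 (SE 0.143, edgeR adjusted p = 0.00210), a 1.83-fold rise, the largest of the 7 genes. It was called in all 21 alternatives tried, with adjusted p up to 0.0175. Without combined libraries 2 and 3 the log2 fold change was 0.93 (adjusted p = 0.0152). Lyn, the kinase best known for phosphorylating ITIMs, had 437, 459 and 408 CPM in the combined group, 428, 356 and 412.5 CPM with IL-33, 323, 315 and 338 CPM with anti-Siglec-F, and 271, 282 and 286 CPM with isotype. No combined or IL-33 library reached down to an anti-Siglec-F library, and no anti-Siglec-F library reached down to an isotype library. Its log2 fold change with both stimuli was 0.63 (SE 0.133, edgeR adjusted p = 0.0100). The call held without combined libraries 2 and 3 (log2 fold change 0.69, adjusted p = 0.0482) and was lost without isotype library 1 (0.64, adjusted p = 0.0538) and with no expression filter (0.62, adjusted p = 0.0558).

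Csk, the kinase that restrains Lyn and Fgr, had 594, 977 and 833 CPM in the combined group, 662, 502 and 533 CPM with IL-33, 529, 487 and 623 CPM with anti-Siglec-F, and 445, 569 and 456 CPM with isotype. All 3 combined libraries were above the isotype range, but libraries 2 and 3 were far above library 1. The log2 fold change was 0.71 (SE 0.200, edgeR adjusted p = 0.0398). Without combined libraries 2 and 3 it was 0.33 (adjusted p = 0.532), and with the length and GC trend removed 0.82 (adjusted p = 0.0158). The call was also lost without combined library 2 (adjusted p = 0.128) or 3 (0.0902), without anti-Siglec-F library 1 (0.0546), and without isotype library 1 (0.147), 2 (0.0510) or 3 (0.146). With the replicate number as a block the adjusted p was 0.0528, and with only the 2 groups compared in the fit it was 0.0875.

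Syk, the kinase of ITAM receptors, had 1327, 800.1 and 829 CPM in the combined group, 1296, 1083 and 1238 CPM with IL-33, 1025, 1099 and 1009 CPM with anti-Siglec-F, and 997, 868 and 964 CPM with isotype. In the combined group library 1 was the highest of all 12 libraries, and libraries 2 and 3 were the lowest. The mean log2 fold change was 0.06 (95% interval -0.35 to 0.47, edgeR adjusted p = 0.868), and 0.54 without libraries 2 and 3 (adjusted p = 0.151). The ratio of Csk to Syk (per length) was 2.23 ± 1.00 in the combined group, 1.17 ± 0.102 with IL-33, 1.32 ± 0.220 with anti-Siglec-F and 1.32 ± 0.285 with isotype (SD, n = 3 each). Libraries 2 and 3 set the combined mean, at 3.06 and 2.52, while library 1 alone had a ratio of 1.121, below the isotype mean and within the isotype range.

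**Figure D2:**
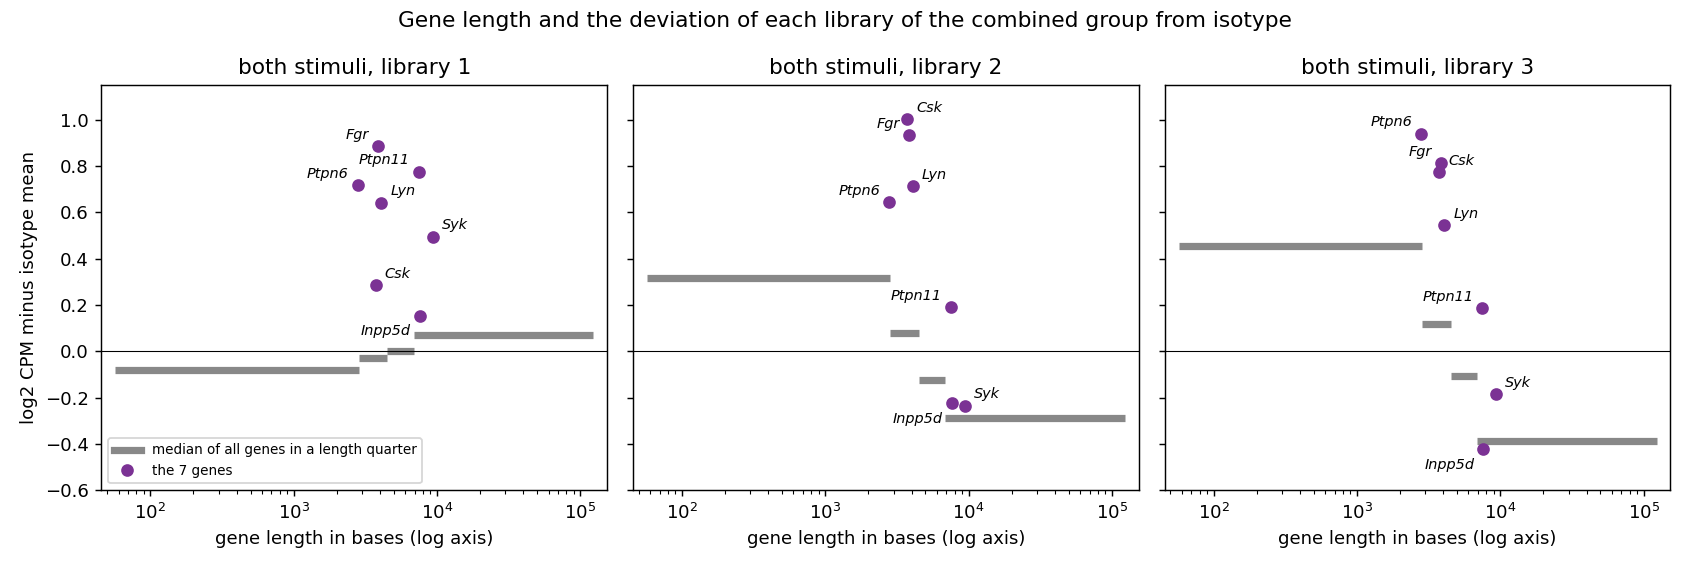
Log2 CPM of the 7 genes minus the isotype mean (vertical axis) against gene length in bases (log axis), in each of the 3 combined libraries; grey bars are the median of all genes in each of 4 length classes. In library 1 all 7 genes are above 0 and the grey bars lie between -0.08 and 0.07. In libraries 2 and 3 the long genes Syk and Inpp5d fall below 0, as the bar of the longest genes does. Ptpn11, in the same length class, stays above 0 in both.

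The position of the 7 genes along gene length differed. Ptpn6 falls in the shortest of the 4 length classes, Csk, Fgr and Lyn in the next, and Ptpn11, Inpp5d and Syk in the longest. Fgr deviated from the isotype mean by 0.88, 0.93 and 0.81 (log2) in combined libraries 1, 2 and 3, and Lyn by 0.64, 0.71 and 0.54. Csk deviated by 0.29, 1.00 and 0.77, while Syk deviated by 0.50, -0.24 and -0.18 and Inpp5d by 0.15, -0.22 and -0.42. Ptpn11 deviated by 0.78, 0.19 and 0.19, and Ptpn6 by 0.72, 0.64 and 0.94. Fgr and Lyn were thus alike in the 3 libraries, and Csk, Syk, Inpp5d and Ptpn11 were not. The part of the length trend in the values of Csk, Syk, Inpp5d and Ptpn11 was not tested further than by the alternatives given with each gene.

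With IL-33 alone, 1 of the 7 genes rose over isotype, Fgr, where 1.46% of all genes were called higher and 0.749% lower. The log2 fold change of Fgr over isotype was 0.75 (SE 0.143, edgeR adjusted p = 0.0134), a 1.68-fold rise. The call was lost without IL-33 library 1 (log2 fold change 0.72, adjusted p = 0.0774), isotype library 1 (0.75, 0.0752) or isotype library 3 (0.76, 0.0797). By edgeR, the log2 fold change was 0.51 for Lyn (95% interval 0.23 to 0.80, adjusted p = 0.0690), 0.62 for Ptpn6 (0.26 to 0.98, adjusted p = 0.0799) and 0.56 for Ptpn11 (0.20 to 0.92, adjusted p = 0.113). These 3 genes did not pass, although their IL-33 libraries all lay above the isotype libraries, as did those of Fgr and Syk, 5 of the 7 genes against 11% of all genes. DESeq2 called all 3 of them besides Fgr. Without combined libraries 2 and 3, Ptpn11 and Lyn were called (adjusted p = 0.0252 and 0.0427). Both were also called without combined library 1 (0.0265 and 0.0469). Syk had a log2 fold change of 0.35 (-0.06 to 0.76, adjusted p = 0.477), Csk of 0.21 (-0.22 to 0.63, 0.772) and Inpp5d of 0.15 (-0.22 to 0.52, 0.821). The median of the 7 genes was 0.51, against -0.01 over all genes.

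The antibody against Siglec-F alone gave no call among the 7 genes or among all genes (0%) by edgeR. At an unadjusted p under 0.05, 0 of the 7 genes and 370 of all genes (2.54%) passed. DESeq2 called 12 genes and limma voom 10, none of them among the 7. All 7 log2 fold changes over isotype were positive, between 0.15 and 0.36, with a median of 0.21 against -0.01 over all genes. In 6 of the 7 genes, all but Csk, the 3 anti-Siglec-F libraries lay above the 3 isotype libraries, as they did in 6.73% of all genes. Ptpn11 had the largest value (0.36, 95% interval 0.00 to 0.72), followed by Fgr (0.27, -0.04 to 0.57) and Lyn (0.22, -0.07 to 0.50). Inpp5d stood at 0.21 (-0.16 to 0.58), Ptpn6 at 0.19 (-0.17 to 0.55), Csk at 0.16 (-0.27 to 0.58) and Syk at 0.15 (-0.26 to 0.56). The upper bounds of these intervals lie between 0.50 and 0.72, so a p above the threshold does not show that the antibody left these transcripts as they were. The comparisons with isotype share the same 3 isotype libraries.

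**Figure D3:**
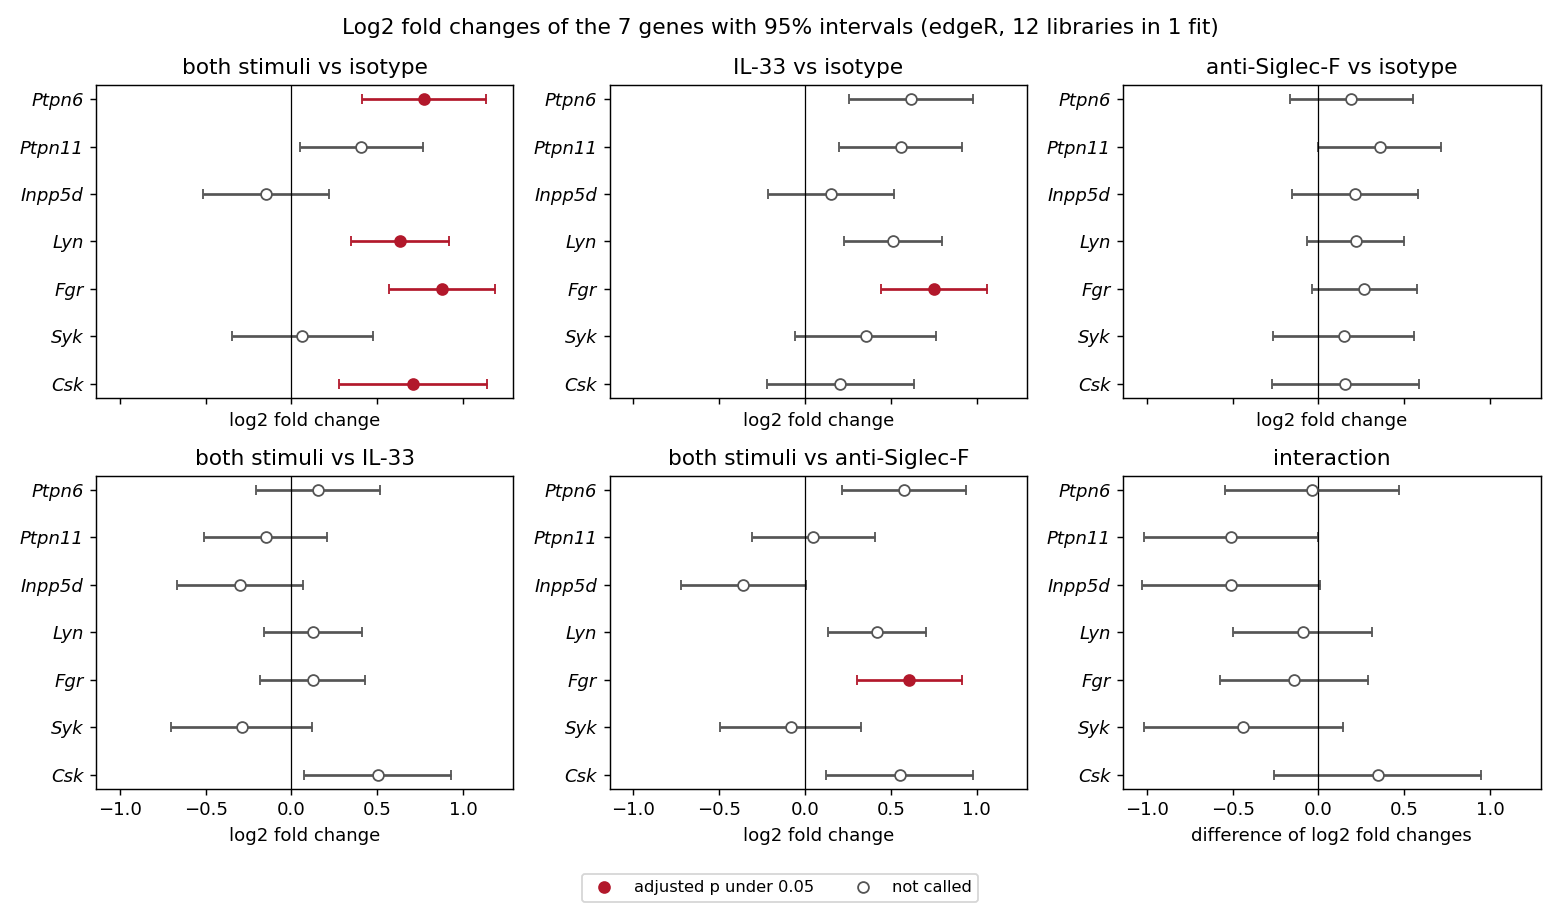
Log2 fold changes of the 7 genes in 5 comparisons, and the difference of fold changes in the interaction panel, with 95% intervals from the edgeR fit of 12 libraries; filled points passed an adjusted p under 0.05. The filled points are Fgr in 3 panels and Ptpn6, Lyn and Csk in the panel of both stimuli against isotype.

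Adding the antibody to IL-33 gave no call among the 7 genes or all genes (0%, edgeR). At an unadjusted p under 0.05, 1 of the 7 genes and 2526 of all genes (17.4%) passed, DESeq2 called 470 genes and limma voom 0, and neither called any of the 7. Csk had the largest log2 fold change over IL-33 alone, 0.50 (95% interval 0.07 to 0.93, edgeR adjusted p = 0.236), and 0.11 without combined libraries 2 and 3. Ptpn6 stood at 0.15 (-0.21 to 0.51), Lyn at 0.12 (-0.16 to 0.41) and Fgr at 0.12 (-0.18 to 0.43). Ptpn11 stood at -0.15 (-0.51 to 0.21), Syk at -0.29 (-0.70 to 0.12) and Inpp5d at -0.30 (-0.66 to 0.07). These 3 were 0.25, 0.18 and 0.04 without combined libraries 2 and 3. Without combined library 1, Csk (0.67, adjusted p = 0.0299) and Syk (-0.58, adjusted p = 0.0260) were called, in opposite directions. In each of the 7 genes the combined and IL-33 libraries overlapped, while 6.98% of all genes were higher and 7.07% lower without overlap.

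With IL-33 added to the antibody, 1 of the 7 genes rose, Fgr, where 2.7% of all genes were called higher and 1.72% lower. The log2 fold change of Fgr over anti-Siglec-F alone was 0.61 (SE 0.143, edgeR adjusted p = 0.0311), but it was called in only 11 of 21 alternatives. Leaving out any of 7 libraries lost it: combined library 2 (adjusted p = 0.0680) or 3 (0.0641), IL-33 library 1 (0.0526), anti-Siglec-F library 1 (0.135) or 2 (0.138), and isotype library 1 (0.0517) or 3 (0.0555). Without combined libraries 2 and 3 it stood at 0.67 (adjusted p = 0.152). Over the 21 alternatives the log2 fold change stayed between 0.56 and 0.73. By edgeR, Ptpn6 stood at 0.58 (95% interval 0.22 to 0.94, adjusted p = 0.0679), Csk at 0.55 (0.12 to 0.98, 0.123) and Lyn at 0.42 (0.13 to 0.70, 0.0883). Ptpn11 stood at 0.05 and Syk at -0.08. Inpp5d stood at -0.36 (-0.73 to 0.01, adjusted p = 0.227), with all 3 combined libraries below all 3 anti-Siglec-F libraries, as in 12% of all genes. The combined libraries of Ptpn6, Lyn and Fgr lay above all anti-Siglec-F libraries, 3 of the 7 genes against 10% of all genes. Without combined library 1, Ptpn6 (adjusted p = 0.0381) and Csk (0.0185) were called higher and Inpp5d (-0.55, 0.0320) lower.

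The interaction asks whether the response to both stimuli differs from the sum of the responses to each on the log2 scale. It was called for 0 of the 7 genes and 0% of all genes by edgeR. At an unadjusted p under 0.05, 1 of the 7 genes and 1150 of all genes (7.91%) passed, DESeq2 called 3 genes and limma voom 0, and none of these were among the 7. Fgr stood at -0.14 (95% interval -0.58 to 0.29), Lyn at -0.09 (-0.50 to 0.31) and Ptpn6 at -0.04 (-0.55 to 0.47). Ptpn11 stood at -0.51 (-1.01 to 0.00), Inpp5d at -0.51 (-1.03 to 0.01), Syk at -0.44 (-1.02 to 0.14) and Csk at 0.35 (-0.26 to 0.95). Without combined libraries 2 and 3, Syk stood at 0.03 and Csk at -0.05.

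Other Src family kinases were set beside Lyn and Fgr, which averaged 88.3 and 121 RPKM over the 12 libraries. Blk (4.84 RPKM over 12 libraries), Fyn (3.43) and Lck (2.15) were far lower, Src and Yes1 were at 0.211 and 0.112 RPKM, and Frk had 0 counts in 12 libraries. The ratio of Fgr to Lyn per length was 1.45 ± 0.0231 in the combined group, 1.45 ± 0.0515 with IL-33, 1.27 ± 0.122 with anti-Siglec-F and 1.23 ± 0.0757 with isotype (SD, n = 3 each). Of the kinases named here, Fgr and Lyn rose with both stimuli over isotype, Fgr rose with IL-33 alone, and Blk, Fyn, Lck, Src and Yes1 were not called in any comparison.

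**Figure D4:**
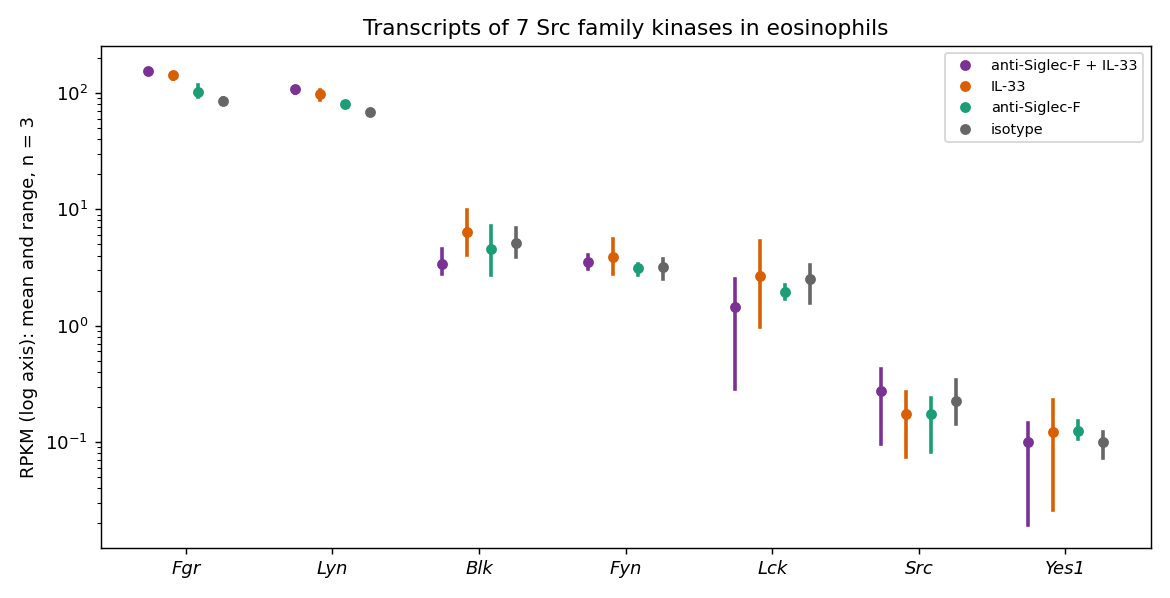
RPKM (log axis) of 7 Src family kinases, with the mean as a point and the lowest to highest library as a bar (n = 3), and the groups in each gene from the combined group at left to isotype at right; Frk had 0 counts and is not drawn. Fgr is at 155 RPKM in the combined group and 84.3 with isotype, and the other 5 kinases lie below 10 RPKM on average.

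The genes around the 7 in the pathway were described from lists of related enzymes and adaptors. Counts in these lists are to be read beside the shares of all genes called. These were 5.47% higher and 4.41% lower for both stimuli over isotype, and 1.46% and 0.749% for IL-33 over isotype. For both stimuli over anti-Siglec-F they were 2.7% and 1.72%. No list was tested as a set. Of 11 tested genes of the Syk family and ITAM adaptors, 1 rose with both stimuli over isotype and none fell (median log2 fold change 0.06, against -0.05 over all genes). This was Fcer1g, the signalling chain of Fc receptors (log2 fold change 1.24, edgeR adjusted p = 0.0124), with 979 CPM in the combined group, 526 with IL-33, 474 with anti-Siglec-F and 414 with isotype. Its call was lost without combined libraries 2 and 3 (0.69, adjusted p = 0.263), without isotype library 1 (0.0659) and without isotype library 3 (0.0538). Tyrobp (DAP12), the adaptor of several activating receptors, had a log2 fold change of 0.63 (adjusted p = 0.171). Of 20 tested genes that act below Syk, 3 rose and none fell (median 0.12). Pik3ap1 (BCAP), an adaptor for PI3-kinase, rose by a log2 fold change of 1.44 (adjusted p = 0.0128, edgeR), and Tec, a kinase of the Btk family, by 0.85 (adjusted p = 0.0124). Pik3ap1 stood at 2.19 (adjusted p = 0.000459) and Tec at 1.02 (0.0122) without combined libraries 2 and 3, and without combined library 1, Pik3ap1 stood at 0.88 (0.0176). The Pik3ap1 call was lost without isotype library 2 (adjusted p = 0.0543), and Tec without isotype library 3 (0.0635). The remaining one was Bcl10, an adaptor towards NF-kB (0.53, adjusted p = 0.0439; 0.62 and 0.117 without combined libraries 2 and 3), called in 8 of 21 alternatives and lost without combined library 1 or 3, IL-33 library 1, or any anti-Siglec-F or isotype library (adjusted p up to 0.161). With IL-33 alone, 1 of 20 rose, Pik3ap1 (1.62, adjusted p = 0.0163), with 446 CPM in the IL-33 group and 145 with isotype. That call was lost without IL-33 library 1 (adjusted p = 0.0917) and without isotype library 1 (0.0661), 2 (0.0957) or 3 (0.0658).

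Among lipid phosphatases, Inpp4a, a 4-phosphatase that acts on the lipid SHIP1 makes, fell with both stimuli over isotype (log2 fold change -0.78, edgeR adjusted p = 0.0218). Its value was -0.49 without combined libraries 2 and 3 (adjusted p = 0.303), and the call was lost without combined library 2 (0.0649) and without isotype library 1 (0.0641), 2 (0.0618) or 3 (0.0980). Inppl1 (SHIP2), the relative of SHIP1, was at 0.580 RPKM over the 12 libraries, against 86.0 RPKM for Inpp5d. Of 12 tested adaptors and receptors that bind the SH2 phosphatases, 1 rose and none fell (median 0.13), namely Pecam1, an ITIM-bearing adhesion receptor (0.73, adjusted p = 0.0102). Its call was lost without isotype library 1 (0.0592), and it stood at 0.84 (0.0433) without combined libraries 2 and 3. Of 12 tested other cytosolic tyrosine phosphatases, 2 rose and none fell (median 0.18). Ptpn2, a phosphatase of JAK and STAT proteins, had 81.2 CPM in the combined group, 65.5 with IL-33, 56.8 with anti-Siglec-F and 48.6 with isotype (0.74, adjusted p = 0.00634), and was called in all 21 alternatives, with 0.77 (adjusted p = 0.0353) without combined libraries 2 and 3. Its relative Ptpn1 (0.65, adjusted p = 0.0406) was called in 9 of 21 and lost without combined library 1 or 3, IL-33 library 1, or any anti-Siglec-F or isotype library (adjusted p up to 0.132), but stood at 0.98 (adjusted p = 0.0106) without combined libraries 2 and 3. Of 11 tested genes in control of Src kinases, only Csk was called (median -0.03).

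With both stimuli over anti-Siglec-F, 1 gene rose in each of 3 of these 7 lists: Fgr, Fcer1g (1.05, edgeR adjusted p = 0.0446) and Tec (0.76, adjusted p = 0.0363). Fcer1g was called in 9 of 21 alternatives and was lost without combined library 2 or 3, IL-33 library 1, or any anti-Siglec-F or isotype library (adjusted p up to 0.196). Without combined libraries 2 and 3 it stood at 0.50 (adjusted p = 0.638). Tec was called in 11 of 21 and was lost without combined library 3, IL-33 library 1, or any anti-Siglec-F or isotype library (adjusted p up to 0.128), and stood at 0.93 (0.0419) without combined libraries 2 and 3. No list gene fell. With IL-33 over isotype the 5 lists other than the Src family and the genes below Syk gave 0 calls. No gene of any list was called for anti-Siglec-F over isotype, for both stimuli over IL-33 or for the interaction. The receptor gene Siglecf itself had 617 ± 51.4 CPM in the combined group, 698 ± 161 with IL-33, 908 ± 138 with anti-Siglec-F and 878 ± 77.7 with isotype (SD, n = 3 each), and was not called in any comparison.

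A few markers of monocytes and macrophages moved with the stimuli, but most of the list did not. The summed CPM of the 14 listed genes was 3265 to 4152 in the combined group, 2524 to 3478 with IL-33, 2048 to 2382 with anti-Siglec-F and 1584 to 1858 with isotype. Of the 11 that were tested, 3 rose with both stimuli over isotype and 1 fell (7 of 11 positive, median log2 fold change 0.61, against -0.05 over all genes). Adgre1 (F4/80, carried by mouse eosinophils too) rose by a log2 fold change of 1.08, Csf1r by 1.24 and Spic by 3.92, and the chemokine receptor Ccr2 fell by 1.13 (edgeR adjusted p from 0.000551 to 0.0188). The same 3 rose with IL-33 alone, Adgre1 by 0.79, Csf1r by 0.96 and Spic by 3.65, where 5 of the 11 were positive and the median was -0.14, against -0.01 over all genes. Adgre1 and Csf1r held most of the sum. The macrophage genes C1qa, C1qb and C1qc had medians of 1.43, 1.46 and 1.47 CPM, Marco had a median of 0, and Mertk and Ms4a7 stayed below 1 CPM in every library. The 7 dendritic cell markers summed to 65.7 to 127 CPM in the combined group, 34.5 to 57.8 with IL-33, 26.1 to 40.4 with anti-Siglec-F and 18.3 to 23.2 with isotype, most of it Batf3, which rose by 2.43 with both stimuli and by 1.36 with IL-33 alone. Flt3 and Zbtb46 had medians of 1.68 and 2.04 CPM, and Clec9a and Cd209a stayed below 1 CPM in every library. Eosinophil markers summed to 5675 to 14010.2 CPM in the combined group, 4586 to 7928 with IL-33, 6145 to 10805.5 with anti-Siglec-F and 5897 to 10878 with isotype, with 0 of 10 called. With IL-33 over isotype 0 of these 10 were positive (median log2 fold change -0.42, against -0.01 over all genes). With both stimuli over isotype 6 of 10 were positive (median 0.14), and with anti-Siglec-F over isotype 4 of 10 (median -0.07). Of the neutrophil, B and plasma cell, T and NK cell, basophil and mast cell, erythroid and megakaryocyte lists, none had a called gene in these comparisons. Some of these genes were well detected. Neutrophil markers summed to 865 to 1895 CPM in the combined group and 478 to 1553 with IL-33. With anti-Siglec-F the sums were 1090 to 2230 CPM and with isotype 980 to 2177. For B and plasma cells they were 560 to 829, 599 to 1141, 654 to 814 and 678 to 1030 CPM, in that group order. Retnlg, Ngp and Ighm had medians of 537, 343 and 323 CPM. The part of other cells in the results on the 7 genes was not tested.

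Over the 12 libraries Fgr and Lyn had the most similar patterns among the 7 genes (Pearson r of log2 CPM 0.97). Ptpn6 followed both, at 0.91 with each, and Ptpn11 and Syk were at 0.85. Inpp5d was at 0.76 with Syk and -0.62 with Csk. The 12 libraries share the groups and, in some of them, trends on gene length, and the values are a description. Among 8649 other genes, those most like Fgr were Pou2f2 (Oct-2, a transcription factor, r 0.98), Lyn (0.97) and the NAD kinase Nadk (0.97). Those most like Lyn were Fgr (0.97), Pou2f2 (0.96) and Nab1 (0.96). Those most like Ptpn6 were the chemokine gene Ccl4 (0.97), the kinase gene Mapkapk3 (0.96) and the cytokine gene Il13 (0.96). Ccl4 averaged 349.6 CPM in the combined group, 159.8 with IL-33, 14.0 with anti-Siglec-F and 5.88 with isotype. Those most like Csk were Cotl1 (0.96), Id2 (0.96) and Rab8a (0.95). The long genes paired with other genes: Syk with Hivep1 (0.97), Traf6 (0.96) and Eif3a (0.96), Inpp5d with Chd8 (0.97), Med13l (0.96) and Ppip5k2 (0.96), and Ptpn11 with Ddx19b (0.96), Aff1 (0.96) and Tmem170b (0.95).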

How the data were processed

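RNA-seq was made from 12 libraries in 4 groups of 3, grouped by their titles. The authors deposited whole-number counts per gene, per the file headers, with gene length and mm10 coordinates. Per the submitters' processing notes, mm10 and the tools STAR 2.6.1d, featureCounts 1.5.0-p3, fastp, FastQC 0.11.8 and DESeq2 were used. For the annotation release and the strand setting no value is given in the sources used, so reads of overlapping or antisense genes cannot be told apart. The authors' normalized table, raw counts divided by 1 size factor per library, was not used. No 2 libraries of the same group agreed within sampling noise (chi-square per degree of freedom at least 15.2).

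The counts of all 12 libraries were fitted together in edgeR 4.0.16 (R 4.3.3; quasi-likelihood F test) after filterByExpr by group and TMM scaling, without a replicate block. P-values were adjusted by Benjamini-Hochberg over the 14547 tested genes, and genes were called at an adjusted p under 0.05. Standard errors were derived from fold change and F statistic, and 95% intervals from the fit's degrees of freedom. From the deposited counts, CPM and RPKM were derived with TMM factors and, for RPKM, the authors' gene length. Total counts from 11686603 to 17137988 set the precision. The script was tested on simulated data. Alternatives were DESeq2 1.42.0, limma voom (limma 3.58.1), RLE scaling, no expression filter, a replicate block, only the groups compared, no combined libraries 2 and 3, each library left out in turn and, added after the data were seen, a spline on gene length and GC content removed (mgcv 1.9.3), with and without the block.

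Same-numbered IL-33 and isotype libraries were alike, although the labels do not state a pairing. Their deviations from the group means correlated at 0.31, 0.42 and 0.24 over 9178 genes. The main fit did not use the number, and a fit with it as a block is given below. Named genes were the 7 members, Siglecf, up to 3 called genes of each pathway list with the largest change, any list gene that was not called, the marker genes, and the 3 genes with the highest Pearson correlation with each member among genes of at least 5 CPM (prior count 0.5). The members and lists were chosen with earlier results of these data known. Promoter sequences are those of RefSeq on GRCm38.p6. Some genes of the pathway lists are not reported here.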

Additional observations from a re-analysis of the deposited data

How the results depend on the processing

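Of the 7 genes, 1 was called for IL-33 over isotype, 4 for both stimuli over isotype, 1 for both over anti-Siglec-F, and 0 in the other comparisons. Leaving out single libraries gave 0 to 3 for IL-33 over isotype, 0 to 0 for anti-Siglec-F over isotype, 1 to 4 for both over isotype, 0 to 2 for both over IL-33, 0 to 4 for both over anti-Siglec-F and 0 to 0 for the interaction. The counts over all genes, in the same order, were 116 to 488 (against 322), 0 to 1 (0), 515 to 2916 (1437), 0 to 2116 (0), 124 to 2839 (643) and 0 to 4 (0). For IL-33 over isotype, DESeq2 called 4 of the 7, no combined libraries 2 and 3 gave 3, limma voom 5, the length and GC trend removed 3 and the same with the replicate block 2. The counts over all genes were 806 by DESeq2, 683 with no filter, 688 with no combined libraries 2 and 3 and 2089 by limma voom. For anti-Siglec-F over isotype they were 12, 70 and 20 (DESeq2, no filter, only 2 groups compared), 1 with no combined libraries 2 and 3 and 10 by limma voom. For both over isotype they were 2404 by DESeq2, 738 with only 2 groups and 651 with no combined libraries 2 and 3. For both over IL-33 they were 470 by DESeq2 and 786 with no filter, and for the interaction 3 and 86. For both over anti-Siglec-F they were 1627 by DESeq2, 1600.0 with no filter, 242 with only 2 groups, 220.0 with no combined libraries 2 and 3 and 424 by limma voom. Of the 7, these gave 4 by DESeq2, 0 with no filter, with only 2 groups and with no combined libraries 2 and 3, and 2 with the trend removed.

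With the replicate block, 364, 0, 1459, 0, 642 and 0 genes were called in the 6 comparisons, and 1, 0, 3, 0, 1 and 0 of the 7. The block ended the call of Csk with both stimuli and changed no other call among the 7. Outside IL-33 and isotype, the same-numbered libraries did not all correlate above 0.1 (for both stimuli and isotype 0.48, 0.33 and -0.30), and 6 of 6 IL-33 and isotype libraries correlated best with their own number.

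Signs turned only for fold changes that were not called. For both over isotype, Inpp5d was 0.20 with no combined libraries 2 and 3 and 0.041 with the trend removed, or 0.039 with the block too. Syk was -0.070 by limma voom and between -0.23 (without combined replicate 1) and 0.19 over the left-out libraries. For both over IL-33, Ptpn11 was 0.25, Inpp5d 0.037 and Syk 0.18 with no combined libraries 2 and 3, and Ptpn11 0.038 with the trend removed and 0.035 with the block too. For both over anti-Siglec-F, Syk was 0.40 with no combined libraries 2 and 3, between -0.37 and 0.042 over the left-out libraries (above 0 without combined replicate 2 or 3), 0.14 with the trend removed and 0.13 with the block too. Ptpn11 was -0.043 by limma voom and between -0.19 (without combined replicate 1) and 0.15 over the left-out libraries. For the interaction, Syk was 0.028 and Csk -0.054 with no combined libraries 2 and 3, and Ptpn6 lay between -0.14 and 0.14 over the left-out libraries (above 0 without combined replicate 2 or IL-33 replicate 1). The cause was not tested. With 3 libraries a group, the spread between libraries (median SD of log2 CPM 0.339 in the combined group, 0.214 with IL-33, 0.179 with anti-Siglec-F and 0.157 with isotype) limits which changes can be called.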
